A study of Mus musculus with 18 samples.

Results

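The comparison described here set 3 RNA-seq libraries of mouse hepatocytes given a TTR REVERSIR against 3 given a scrambled REVERSIR, with no siRNA in either group. These 6 libraries, titled TTR-RVR and SCRA-RVR replicates 1 to 3, were taken from a series of 18. All 18 were made from total RNA of hepatocytes of male CD-1 mice, a commercial primary cell product that is frozen and plated, and the series holds 6 groups of 3. The other groups used below were PBS alone, an siRNA against Ttr alone, and that siRNA given together with either oligonucleotide. The labels name the TTR REVERSIR R-35 and the scrambled REVERSIR R-61. The sources used here give no dose, exposure time or base sequence for either. The labels do not state whether replicates were separate cultures or animals, so every p-value below measures only the spread between these libraries, which may be technical.

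A REVERSIR is a short synthetic oligonucleotide that pairs with the guide strand of an siRNA loaded in the Argonaute protein. The pairing frees the target mRNA from silencing. Where no siRNA is present the TTR REVERSIR has no such guide to bind, and its bases resemble a stretch of the target mRNA itself, while the scrambled one carries the bases in another order. The comparison therefore asks whether the order of bases in the oligonucleotide by itself changes the hepatocyte's transcripts. The target, Ttr, encodes transthyretin, the protein that hepatocytes secrete to carry thyroxine and, bound to the retinol-binding protein, retinol in plasma.

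Of 11153 genes tested, 2 differed between the oligonucleotides at an adjusted p under 0.05, and both were lower with the TTR REVERSIR. They were Serpina7, which encodes thyroxine-binding globulin, a second plasma carrier of thyroxine, and Aldh1a1, which encodes a retinaldehyde dehydrogenase that makes retinoic acid. These 2 genes are 0.0179% of those tested, in either direction and among those lower alike. With these settings no gene was called higher, nor was any by DESeq2 or limma voom, and no gene called differed by 2-fold or more. Ttr itself did not pass the test. Adjusted p-values, unless said otherwise, come from the quasi-likelihood test of edgeR, with Benjamini-Hochberg adjustment over every gene tested. Log2 fold changes are coded as TTR minus scrambled, values after ± beside them are standard errors, and levels are CPM, each gene's count scaled to a common library size after TMM normalisation.

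Total counts were 2557229, 2896366 and 1755819 in the scrambled libraries and 6392140, 2217585 and 4018243 in the TTR libraries. Rank correlations of log2 CPM among the 6 libraries ran from 0.980 to 0.993 within a group, with a median of 0.985, and had a median of 0.986 between the groups. The 2 groups thus did not separate by this measure. The share of mitochondrial ribosomal RNA ran from 4.06% to 5.18% in the scrambled libraries and over a wider range in the TTR libraries, at 1.69%, 9.13% and 5.84%. In this share PBS replicates 1 and 2 lay far above all others, with 24.3% and 24.1%. They are in neither group compared, but entered the scaling, the filter and the shared estimate of the spread. Summed over 10 markers, hepatocyte transcripts stood at 51339 to 52958 CPM with the scrambled and 50233 to 56553 CPM with the TTR REVERSIR, against 353 to 455 CPM over the 6 libraries for 15 Kupffer cell and macrophage markers. Most of the first sum came from Alb, at 39294 to 44404 CPM, and most of the second from Cd68, at 268 to 349 CPM. Only 6 of the 15 macrophage markers had enough counts to test. In bulk RNA, fewer cells of a type and less RNA per cell cannot be told apart.

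Serpina7 (ENSMUSG00000031271) lies on the minus strand of NCBIM37 chromosome X from 135613796 to 135619775. Its levels were 263, 278 and 282 CPM in the 3 scrambled libraries and 162, 207 and 156 CPM in the 3 TTR libraries. The groups did not overlap, and TTR replicate 2 lay closest to the scrambled libraries. The mean CPM with the TTR REVERSIR was 63.9% of the scrambled mean. The fitted difference was 1.58-fold lower, a log2 fold change of −0.66 ± 0.11 (95% interval −0.89 to −0.43, adjusted p = 0.0193).

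Aldh1a1 (ENSMUSG00000053279) lies on the plus strand of NCBIM37 chromosome 19 from 20676451 to 20717952. It stood at 198, 229 and 218 CPM in the scrambled libraries and at 147, 139 and 132 CPM in the TTR libraries. All 3 TTR libraries lay below all 3 scrambled libraries, and the spread within the TTR group was the smaller of the groups. The mean CPM was 64.6% of the scrambled mean, and the fitted difference was 1.54-fold lower, a log2 fold change of −0.63 ± 0.10 (95% interval −0.84 to −0.42, adjusted p = 0.0193). For each of these 2 genes an exact two-sided permutation test over the 20 ways of splitting 3 against 3 libraries gave p = 0.1, the smallest value it can give.

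Both calls rested on 6 libraries and were lost when any of 4 libraries was left out, with the direction kept. Scrambled replicates 2 and 3, which were among these 4, were much alike, with a chi-square per degree of freedom over genes of 2.24. Their pairs with scrambled replicate 1 gave 19.46 and 15.92, and the pairs of TTR libraries gave 36.16, 15.86 and 9.71. The 3 scrambled libraries were thus not evenly spread, and the cause was not tested. Without scrambled replicate 2 the log2 fold change was −0.65 for Serpina7 and −0.57 for Aldh1a1 (adjusted p = 0.284 by edgeR for both). Without scrambled replicate 3 the values were −0.64 and −0.62 (adjusted p = 0.138 for both). Leaving out TTR replicate 1 gave −0.61 for Serpina7 (adjusted p = 0.368) and −0.68 for Aldh1a1 (adjusted p = 0.0749). Leaving out TTR replicate 3 gave −0.59 and −0.58 (adjusted p = 0.285 for both). Without TTR replicate 2 there were 5 calls, all lower, with Hif1a, Gm14420 (−0.77) and Cd2ap (−0.43), the last chosen after its value was seen, beside the 2 genes. Without scrambled replicate 1 there were 3, with 2410006H16Rik higher at 0.75. Across 19 alternative settings the log2 fold change ranged from −0.78 to −0.59 for Serpina7 and from −0.68 to −0.56 for Aldh1a1, and each gene was called in 14 of them.

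**Figure D1:**
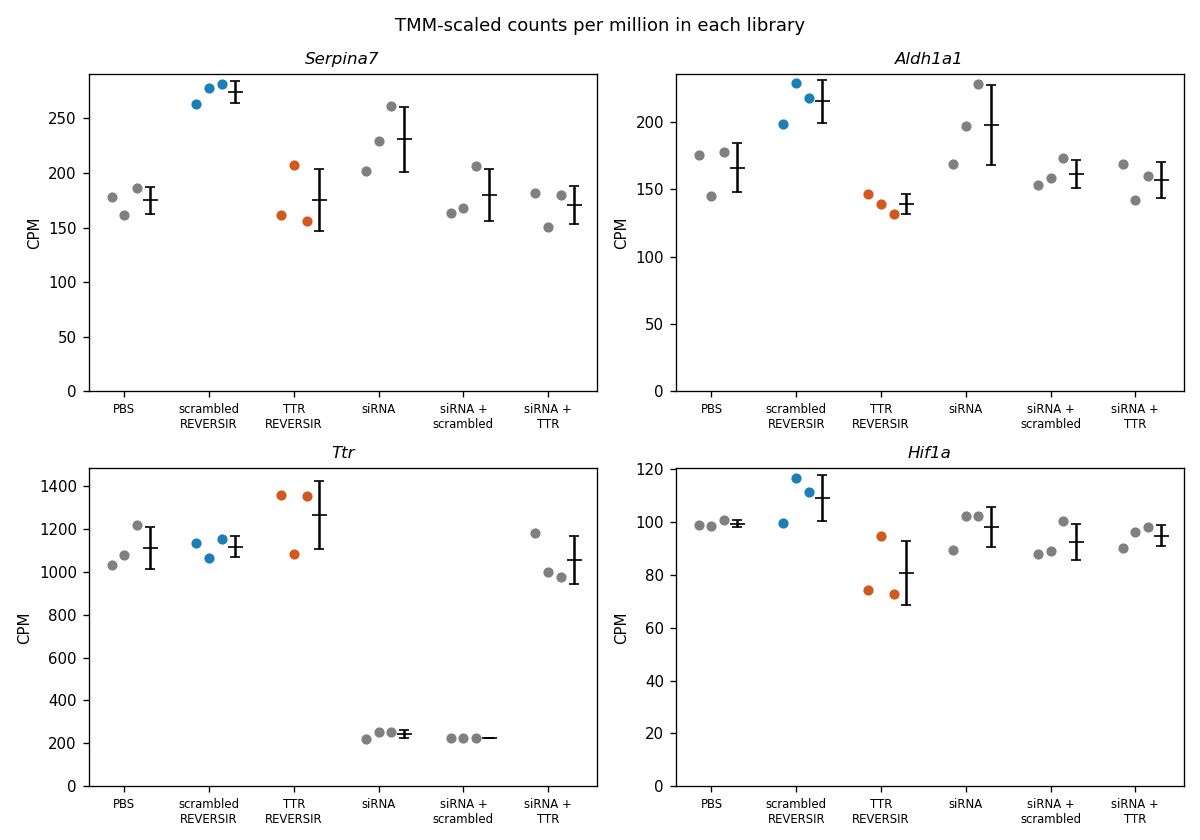
Levels of Serpina7, Aldh1a1, Ttr and Hif1a in CPM after TMM scaling (vertical axes from 0) in the 18 libraries of the 6 groups (horizontal axes). Each point is 1 library, and the bars give the mean ± SD (n = 3). The scrambled libraries lie above the TTR libraries for Serpina7 and Aldh1a1, while the 2 groups overlap for Ttr.

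The 250 bases upstream of the annotated starts of the 2 genes are shown because these were the only transcripts that the test called. They are RefSeq sequence of the build GRCm38.p6, which is not the build of the deposited counts, at chr19:20601718-20601967 on the plus strand and chrX:139085237-139085486 on the minus strand. Capitals mark matches to 3 motifs searched on both strands, chosen after the results were known: AGGTCA, the nuclear receptor half-site, GTTAAT, an HNF1 half-site, and TATAAA, the TATA box. None of the 3 motifs is contained in another.
Aldh1a1: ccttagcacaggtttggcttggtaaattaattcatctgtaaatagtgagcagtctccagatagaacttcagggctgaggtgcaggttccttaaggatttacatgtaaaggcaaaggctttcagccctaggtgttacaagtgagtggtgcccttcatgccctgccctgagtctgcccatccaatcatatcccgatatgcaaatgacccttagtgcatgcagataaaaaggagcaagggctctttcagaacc
Serpina7: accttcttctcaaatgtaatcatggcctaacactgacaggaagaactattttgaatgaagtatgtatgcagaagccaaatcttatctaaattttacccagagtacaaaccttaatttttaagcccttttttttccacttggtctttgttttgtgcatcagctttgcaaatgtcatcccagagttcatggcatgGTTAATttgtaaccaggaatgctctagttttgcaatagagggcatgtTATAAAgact
The Serpina7 window held 1 GTTAAT and 1 TATAAA, and the Aldh1a1 window held none of the 3 motifs. Among 32851 windows of the same length, 6.43% held GTTAAT, 12.37% held TATAAA and 14.02% held AGGTCA. The matches are given as a description of these letters only, and the table lists a second start for each gene.

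The levels of both genes were also set beside PBS. Whether the 2 genes differed from each other in this was not tested. In PBS Serpina7 stood at 178, 161 and 186 CPM. The scrambled libraries all lay above that range, with a log2 fold change of 0.65 ± 0.11 over PBS (adjusted p = 0.0208). This call was lost, with 0 genes called by edgeR, without PBS replicate 1 or 2, without scrambled replicate 2 or 3, and with the third PBS library only. The TTR libraries were at −0.02 ± 0.11 (95% interval −0.24 to 0.21, adjusted p = 0.967). Aldh1a1 stood at 175, 145 and 178 CPM in PBS. The mean lay between those of the 2 REVERSIR groups, and replicate 2 lay within the range of the TTR libraries. It was at 0.37 ± 0.10 with the scrambled REVERSIR (adjusted p = 0.0830) and at −0.25 ± 0.10 with the TTR REVERSIR (adjusted p = 0.201), so that neither differed from PBS past the threshold. In the authors' deposited table of log2 fold changes against PBS, Serpina7 had 0.506 (adjusted p = 9.69e-05 by DESeq2) for the scrambled and −0.0044 (adjusted p = 0.991) for the TTR REVERSIR. The same authors' deposited tables gave Aldh1a1 0.300 (adjusted p = 0.0247 by DESeq2) and −0.200 (adjusted p = 0.184). Both comparisons share the PBS libraries, so the 2 values of a gene are not independent. The deposited log2 fold changes, here and for Hif1a below, were smaller in size than those of edgeR. The 2 sources may not be on the same scale, so their sizes are not compared.

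The same 2 oligonucleotides were also given together with the siRNA, in 6 other libraries. There Serpina7 stood at 164, 168 and 207 CPM with the scrambled and 181, 150 and 180 CPM with the TTR REVERSIR. These groups overlapped, with a log2 difference of −0.07 ± 0.10 (95% interval −0.28 to 0.15). Aldh1a1 stood at 153, 158 and 173 CPM with the scrambled and 169, 142 and 160 CPM with the TTR REVERSIR, a difference of −0.04 ± 0.09 (95% interval −0.23 to 0.15). The difference of the 2 differences was −0.60 ± 0.15 for Serpina7 (95% interval −0.91 to −0.28) and −0.59 ± 0.14 for Aldh1a1 (95% interval −0.87 to −0.31). Neither passed this interaction test after adjustment (adjusted p = 0.889 by edgeR for both). Both genes were picked for small p-values without siRNA, which favours large values here, so these sizes and intervals are a description. In libraries given the siRNA alone, Serpina7 stood at 202, 229 and 262 CPM and Aldh1a1 at 169, 197 and 228 CPM, where the lowest and highest libraries lay further apart than in the scrambled group.

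Ttr (ENSMUSG00000061808, NCBIM37 chromosome 18, 20823751 to 20832825, plus strand) stood at 1135, 1064 and 1154 CPM in the scrambled libraries and at 1357, 1083 and 1355 CPM in the TTR libraries. TTR replicates 1 and 3 lay above every scrambled library, and replicate 2 lay among them. The log2 fold change was 0.18 ± 0.09 (95% interval −0.0046 to 0.37, adjusted p = 0.698). By an exact permutation test, two-sided, p was 0.3. The upper end of the interval lay below a 1.5-fold rise. Without TTR replicate 2 the value was 0.28 (adjusted p = 0.229 by edgeR). With the siRNA present, Ttr was higher with the TTR than with the scrambled REVERSIR by 2.22 ± 0.09 (adjusted p = 4.05e-14), and it was the only gene called there, which is 0.00897% of those tested. The difference between the comparisons without and with siRNA was −2.04 ± 0.13 (95% interval −2.30 to −1.78, adjusted p = 3.28e-10), and Ttr was again the only gene called, 0.00897% of those tested.

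Genes that handle thyroid hormone and retinol were described as a group of 23, of which 20 were measured well enough to test. Serpina7 and Aldh1a1 fell, none rose, and 18 did not pass, beside 0.0179% called among all genes tested. The list was chosen with earlier results of these data known, so its holding both genes is a description only. The median log2 fold change of the 20 was 0.01, beside −0.00 over all genes tested, with 11 positive and 9 negative. Rbp4, the plasma retinol carrier that binds transthyretin, stood at 796, 867 and 890 CPM with the scrambled and at 768, 879 and 919 CPM with the TTR REVERSIR, a log2 difference of 0.01 (95% interval −0.26 to 0.27). Alb, encoding albumin, which also carries thyroxine, was at 0.05 ± 0.07. Rarb, a retinoic acid receptor gene that is itself induced by retinoic acid, was at −0.43 (95% interval −0.85 to −0.01, adjusted p = 0.698, with an unadjusted p above 0.05 that the interval does not reflect), and its groups of 9.84, 8.20 and 14.6 against 7.88, 7.73 and 7.48 CPM did not overlap. Cyp26a1, which degrades retinoic acid, was at −0.24 (95% interval −0.64 to 0.16), and the nuclear receptor genes Thrb and Rxra were at −0.19 and 0.08. Aldh1a7, a close relative of Aldh1a1 that could share reads with it, was at −0.13 (95% interval −0.42 to 0.16). The deiodinase gene Dio1 had at most 3.03 CPM in any of the 6 libraries, too few for a narrow interval (−0.83 to 1.34).

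**Figure D2:**
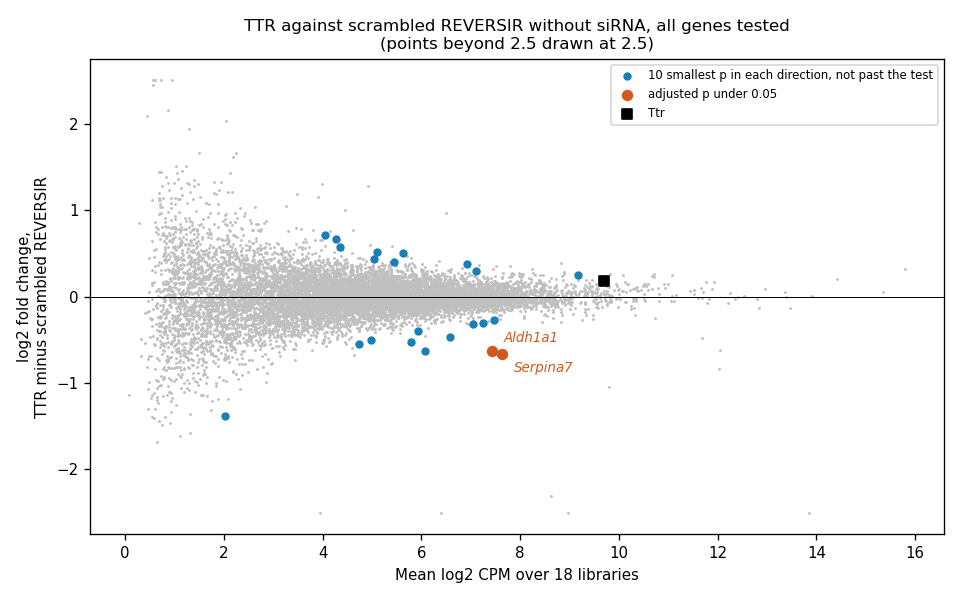
Log2 fold change of each of 11153 genes between TTR and scrambled REVERSIR (vertical axis) against the mean log2 CPM over 18 libraries (horizontal axis). Serpina7 and Aldh1a1, in orange, are the 2 genes past the threshold, and blue points are the 10 genes with the smallest p in each direction that did not pass.

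The remaining transcriptome differed little between the oligonucleotides. Log2 fold changes of all genes had a median absolute size of 0.119, and 90% of them lay between −0.41 and 0.40. A fold of 2 or more was reached by 127 genes, none of which was called. At an unadjusted p under 0.05 there were 818 genes, where 558 would be expected with no difference if the p-values were evenly spread. For the same oligonucleotides with siRNA the count was 242, below that number, so 558 is only a rough guide. The CPM of the 3 and 3 libraries did not overlap for 1210 genes, or 10.8%, of which 568 were higher with the TTR REVERSIR (5.09%) and 642 lower (5.76%). Over the 20 ways of splitting 3 against 3 libraries, such a separation has a probability of 0.1 with no difference, near the share seen. By comparison 47 genes differed between the scrambled REVERSIR and PBS (0.421%) and 78 between the TTR REVERSIR and PBS (0.699%). Without PBS replicates 1 and 2, edgeR gave 0 for both of these counts and 2 for that between the oligonucleotides.

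How narrow the intervals were depended on the level of the gene. The 95% interval lay within a 2-fold change in either direction for 9473 genes (84.9%) and within a 1.5-fold change for 7123 (63.9%). Among the 3718 genes with a mean log2 CPM from 5.52 up, 98.3% of intervals lay within 1.5-fold. Among the 3718 below 3.69 this held for 11.4%, so most intervals there did not exclude a difference of 1.5-fold. The intervals are not adjusted for the number of genes, and a narrow interval does not mean that such a difference would be called. At higher levels Dpysl2 (mean log2 CPM 4.06) was 1.64-fold higher and Gm14420 (6.06) 1.55-fold lower. Neither was called (adjusted p = 0.345 and 0.353 by edgeR), unlike Serpina7 and Aldh1a1 at similar sizes. Abundant liver transcripts were close to equal. The log2 fold changes were 0.01 ± 0.07 for the heme carrier gene Hpx, 0.05 ± 0.08 for the selenium carrier gene Sepp1, −0.13 ± 0.07 for ceruloplasmin (Cp), −0.03 ± 0.07 for the vitamin D carrier gene Gc, −0.03 ± 0.09 for haptoglobin (Hp), −0.00 ± 0.07 for Serpina3k, 0.09 ± 0.09 for the elongation factor gene Eef1a1 and 0.01 ± 0.07 for Actb. Of the 37991 genes in the files, counts were seen only in TTR libraries for 1675 and only in scrambled libraries for 816. None of these genes had 20 counts or more in total. The TTR libraries were deeper, with a mean total of 4209320 counts against 2403140, and the part of depth in these numbers was not tested.

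Among genes that did not pass, Hif1a, encoding the oxygen-sensitive subunit of hypoxia-inducible factor, came next by p. It stood at 99.5, 117 and 111 CPM with the scrambled and at 74.3, 94.6 and 72.9 CPM with the TTR REVERSIR. The groups did not overlap, and the log2 fold change was −0.47 ± 0.09 (95% interval −0.66 to −0.27, adjusted p = 0.182 by edgeR). DESeq2 called it besides the 2 genes, at −0.46 (adjusted p = 0.0281), and so did edgeR without TTR replicate 2, at −0.57 (adjusted p = 0.00932). Against PBS Hif1a was at 0.13 ± 0.09 with the scrambled (adjusted p = 0.521 by edgeR) and at −0.33 ± 0.09 with the TTR REVERSIR (adjusted p = 0.0712), past the threshold in neither. For the same comparisons the authors' deposited table gave Hif1a 0.108 (adjusted p = 0.501 by DESeq2) for the scrambled and −0.276 (adjusted p = 0.0328) for the TTR REVERSIR.

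The 10 genes with the smallest p on the lower side, Hif1a included, had adjusted p-values from 0.182 to 0.438 by edgeR. Slc7a11, the cystine importer that feeds glutathione synthesis, stood at 60.2, 72.5 and 74.2 CPM against 44.5, 53.7 and 47.8 CPM (log2 fold change −0.52 ± 0.12). Tfrc, the transferrin receptor gene, stood at 151, 159 and 169 CPM against 135, 126 and 120 CPM (−0.32 ± 0.09). All TTR libraries were below all scrambled libraries for both genes. The splicing factor gene Srsf1 was at −0.31 ± 0.08, Mia2, which acts in export from the endoplasmic reticulum, at −0.27 ± 0.07, and the gap junction gene Gjb2 at −0.40 ± 0.10. Eif2b3, a subunit of a translation initiation factor, was at −0.55 ± 0.13, Myof, a membrane repair protein gene, at −0.51 ± 0.12 and Gm14420 at −0.63 ± 0.15. Ccnf, encoding cyclin F, was at −1.39 ± 0.34 from levels of at most 6.43 CPM. The 3 and 3 libraries did not overlap in 9 of these 10 genes, against 10.8% of all genes, but the choice by p favours such genes.

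On the higher side the 10 genes with the smallest p had adjusted p-values from 0.219 to 0.438 by edgeR and none overlapped between groups, which the choice by p favours too. Smox, encoding spermine oxidase, stood at 108, 104 and 92.2 CPM with the scrambled and at 138, 123 and 135 CPM with the TTR REVERSIR (log2 fold change 0.38 ± 0.08). All TTR libraries lay above all scrambled libraries for this gene. Gpi1, a glycolytic isomerase gene, was at 0.25 ± 0.07, Ppif, a mitochondrial cyclophilin gene, at 0.40 ± 0.10, and Upp1, a uridine phosphorylase gene, at 0.43 ± 0.11. Wrnip1 was at 0.52 ± 0.12, the cytoskeletal adaptor gene Dpysl2 at 0.71 ± 0.16, the secreted factor gene Angptl2 at 0.67 ± 0.18, the ubiquitin ligase gene Rnf220 at 0.57 ± 0.15 and the noncoding 2410006H16Rik, which hosts small nucleolar RNAs, at 0.50 ± 0.13.

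These 20 genes did not keep their sizes in the libraries that also held the siRNA. The 10 higher genes had a median log2 fold change of 0.47 without and −0.04 with siRNA, and 3 of them had the same sign in both. The 10 lower genes had medians of −0.49 and −0.03, and 6 of them had the same sign. None of the 20 had an unadjusted p under 0.05 with siRNA. They were picked for small p-values without siRNA, so their sizes there are a description. Over all 11153 genes the 2 sets of log2 fold changes, which share no library, had a Pearson correlation of 0.0872 and a Spearman correlation of 0.01. Genes are not independent replicates, and these values are a description.

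**Figure D3:**
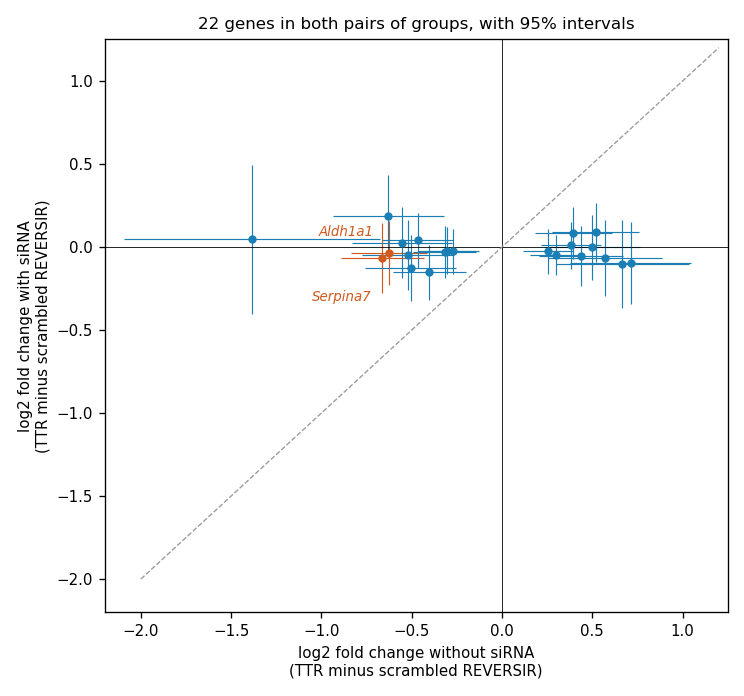
Log2 fold changes between TTR and scrambled REVERSIR without siRNA (horizontal axis) and with siRNA (vertical axis) for the 2 genes called (orange) and the 20 genes with the smallest p that did not pass (blue). Bars are 95% intervals, the dashed line marks equal values, and the points lie near 0 on the vertical axis on both sides.

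Lists of genes for pathways that an oligonucleotide might touch were described by their counts. Outside the list of retinol and thyroid hormone handling, none of the members of the other 24 lists passed the test. In the list of methionine, urea and amino acid metabolism, 9 of 26 tested members had an unadjusted p under 0.05, beside 818 of 11153 genes. Its median was 0.06, with 4 members higher and 3 lower without overlap, beside 5.09% and 5.76% of all genes. In the interferon and RNA sensing list, 16 of 31 tested members were positive and 15 negative, with a median log2 fold change of 0.00, and 0 had an unadjusted p under 0.05. Oas1a, an interferon-induced sensor of double-stranded RNA, stood at 29.1, 29.0 and 30.9 CPM against 38.1, 34.1 and 31.6 CPM (0.24, 95% interval −0.02 to 0.51). Isg15 was at 0.09 and Ifit1 at −0.00. The machinery of RNA interference had a median of −0.02 over 24 members, with a sign that turned when libraries were scaled by totals alone (0.0046). In it Xrn1, an exonuclease that degrades decapped RNA, was at −0.32 (95% interval −0.62 to −0.02) as the 1 member with an unadjusted p under 0.05, and the decapping enzyme gene Dcp2 was at −0.16 (−0.34 to 0.02). Dicer1, which cuts small RNA precursors, was at −0.01 and the Argonaute gene Eif2c2 at 0.13 (95% interval −0.16 to 0.42). The list of oligonucleotide-binding proteins and nucleases had a median of −0.02 over 24 members, where Hnrnpa1 was at −0.13 and the lysosomal nuclease gene Dnase2a at 0.24 (95% interval 0.02 to 0.46).

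Lists that bear on secretion had medians of opposite sign. Of 27 tested genes for secreted liver proteins and hepatocyte identity, 23 were positive, with a median of 0.10, and 4 had an unadjusted p under 0.05. Over all genes 5496 of 11153 were positive. Without overlap 1 member of the list was higher and 1 lower, and its median with siRNA was −0.02. Examples were Apoc3, an apolipoprotein gene, at 0.26 (95% interval 0.04 to 0.49), and the urea cycle gene Ass1, at 0.26 (0.08 to 0.44), neither past the test. TTR replicate 2 lay among the scrambled libraries for both genes. In the list of endoplasmic reticulum stress and the integrated stress response 16 of 25 were negative, with a median of −0.06, 4 had an unadjusted p under 0.05, and 5 did not overlap between groups, all lower. Over all genes tested, 818 of 11153 had such a p and 5.76% were lower without overlap. Hspa5, the main chaperone of the endoplasmic reticulum, stood at 1406, 1511 and 1503 CPM against 1273, 1332 and 1207 CPM (−0.21, 95% interval −0.38 to −0.04, adjusted p = 0.571 by edgeR). The disulfide isomerase gene Pdia4 was at −0.16, Calr at −0.15 and Dnajc3 at −0.13, while the stress transcription factors Atf4 and Ddit3 were at 0.07 and 0.24. Asgr1, a subunit of the receptor by which hepatocytes take up galactose-bearing ligands, stood at 130, 120 and 124 CPM against 164, 126 and 162 CPM (0.29, 95% interval 0.09 to 0.50, adjusted p = 0.538 by edgeR), with TTR replicate 2 close to the scrambled libraries.

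Stress and inflammation genes gave values on both sides. The heme-degrading Hmox1 stood at 206, 169 and 196 CPM against 244, 221 and 259 CPM, without overlap (0.35 ± 0.10, adjusted p = 0.438 by edgeR). The chemokine genes Ccl2 and Cxcl1 were at −0.45 (95% interval −0.75 to −0.16) and −0.60 (−1.04 to −0.16), within an acute phase list whose median over 28 members was −0.03. In that list 5 members had an unadjusted p under 0.05, beside 818 of 11153 genes. Without overlap 4 members were lower and 0 higher, beside 5.76% and 5.09% of all genes. The fatty acid oxidation genes Acaa1b and Cpt1a were at 0.65 (0.21 to 1.08) and −0.24 (−0.45 to −0.03). Of genes that rise as hepatocytes flatten in culture, Ctgf was at −0.28 ± 0.08 and Vim, encoding vimentin, at −0.32 ± 0.09, each lower without overlap, in a list whose median over 27 members was 0.00. The p53 and apoptosis list had a median of 0.04 over 22 members, with Sesn1 at 0.35 (0.06 to 0.63). In xenobiotic metabolism Por was at 0.27 and Sult1a1 at −0.25, around a median of 0.02 over 28 members.

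The values of mitochondrially encoded mRNAs turned on TTR replicate 2. All 7 tested were negative, with a median of −0.18, and none passed. For the same oligonucleotides with siRNA the median had the opposite sign, at 0.13. The respiratory chain gene mt-Cytb stood at 716, 825 and 766 CPM with the scrambled and at 534, 784 and 617 CPM with the TTR REVERSIR (−0.26, 95% interval −0.48 to −0.03). Replicate 2 lay among the scrambled libraries, and it also had the highest share of mitochondrial ribosomal RNA of the 6. Without it the median of the 7 was −0.41. The part of that library's composition in these values was not tested. The 30 nuclear-encoded respiratory chain genes had a median of 0.06.

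**Figure D4:**
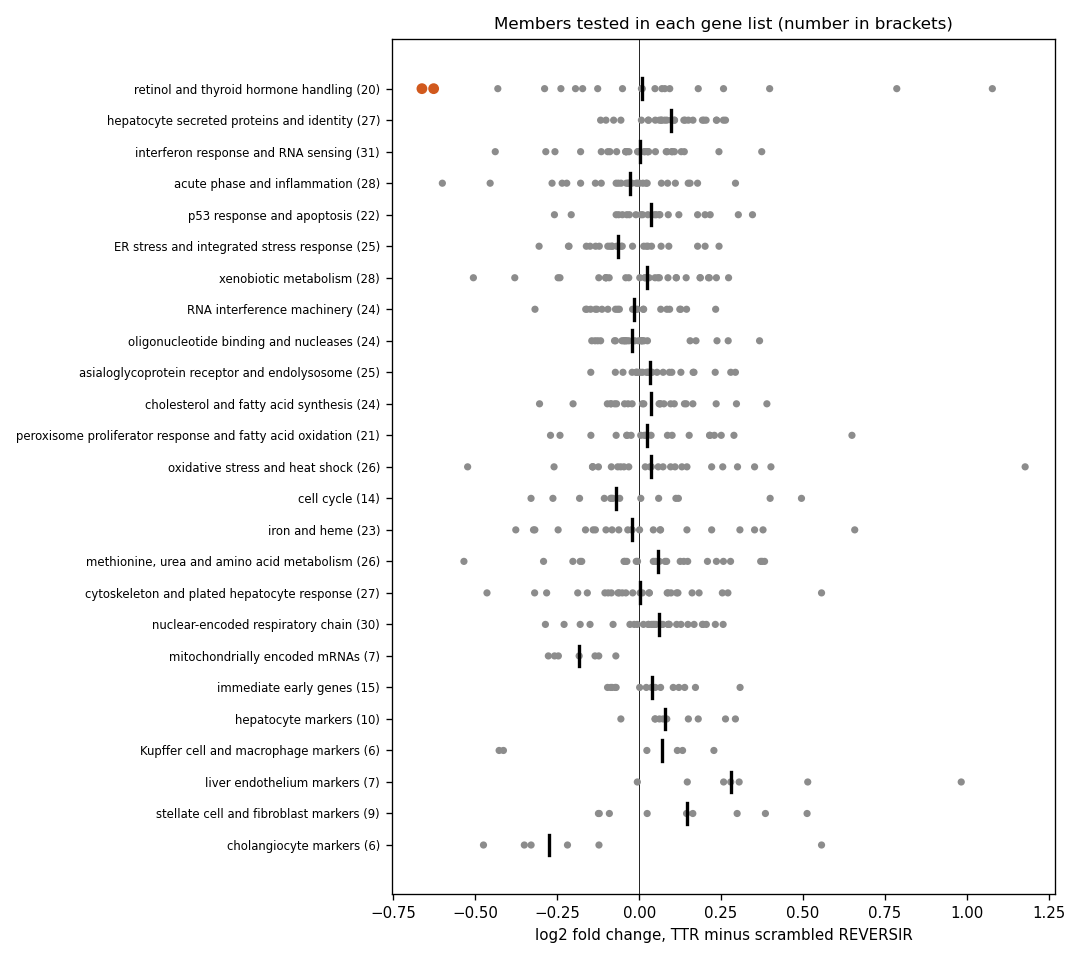
Log2 fold change between TTR and scrambled REVERSIR (horizontal axis) for the tested members of the 25 lists (rows, with the number of members). Each point is a gene, black bars are list medians, and orange marks Serpina7 and Aldh1a1, the 2 members past the threshold.

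Markers of cells other than hepatocytes were low in both groups. The summed level of 14 liver endothelium markers was 50.0 to 63.0 CPM with the scrambled and 64.2 to 71.5 CPM with the TTR REVERSIR, without overlap. Most of it came from Stab2, which stood at 35.2, 36.9 and 45.5 CPM against 45.4, 43.2 and 51.2 CPM, and none of the 7 tested markers passed. Sums for 15 stellate cell and fibroblast markers were 169 to 198 against 184 to 200 CPM, and for 12 cholangiocyte markers 441 to 499 against 401 to 468 CPM. The Kupffer cell marker Timd4 and the cholangiocyte marker Krt7 had no count in any of the 6 libraries. Whether the endothelial share plays a part in any gene's value was not tested.

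Abundant features swung between libraries of the same group. Lars2, annotated as a leucyl-tRNA synthetase gene, had 97.6 CPM in scrambled replicate 1 but 37487 and 35530 CPM in replicates 2 and 3. In the TTR libraries it had 5033, 2193 and 840 CPM. The log2 fold change of −3.18 ± 1.22 (adjusted p = 0.571 by edgeR) was therefore inseparable from the spread within the scrambled group. Among the scrambled libraries the pseudogene AY036118 was high where Lars2 was low, with 16955, 91.2 and 70.8 CPM in the scrambled and 315, 10137 and 688 CPM in the TTR libraries. The nuclear noncoding RNA Neat1 stood at 667, 1269 and 1050 CPM with the scrambled and at 420, 594 and 434 CPM with the TTR REVERSIR, without overlap (−1.05 ± 0.37, adjusted p = 0.542 by edgeR). With the fit limited to the 6 libraries compared, Neat1 and the small nucleolar RNA Snora74a (1.28 ± 0.42 in the fit of all groups) were called too, which made 4 genes.

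**Figure D5:**
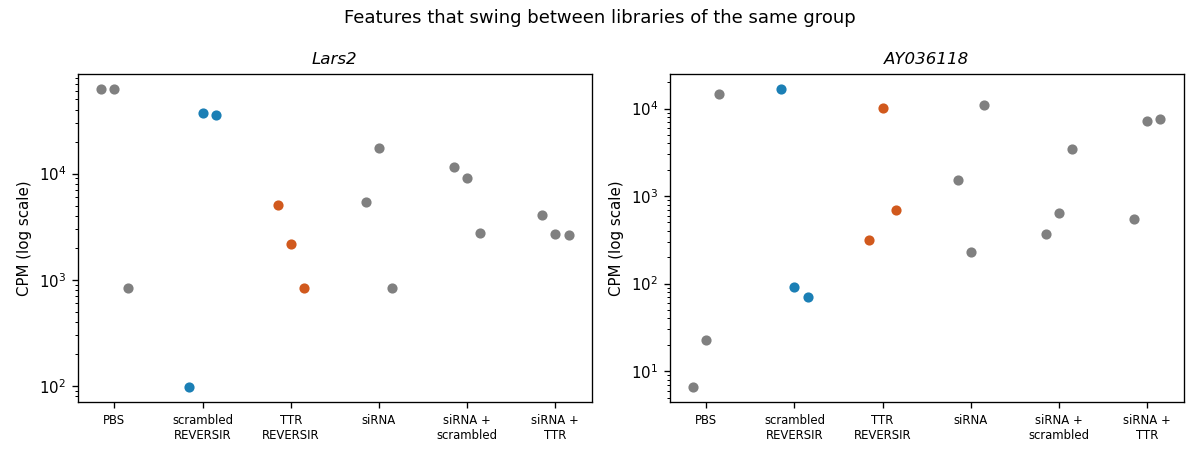
Levels of Lars2 and AY036118 in CPM on a log scale (vertical axes) in each of 18 libraries by group (horizontal axes). Each point is 1 library, and Lars2 is low in scrambled replicate 1 where AY036118 is high.

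Genes with the smallest p against PBS for either oligonucleotide are given here with their direct comparison. Many of the PBS differences were wider in PBS replicates 1 and 2, the libraries rich in mitochondrial ribosomal RNA, than in replicate 3. In PBS Ndufv2 stood at 107, 111 and 71.3 CPM, Mup16 at 50.0, 49.1 and 26.2 CPM, and Rpl41 at 470, 416 and 291 CPM. With the third PBS library only, edgeR called no gene against PBS for either oligonucleotide. Car3, a carbonic anhydrase gene, was at −0.60 ± 0.10 from PBS with the scrambled and at −0.69 ± 0.10 with the TTR REVERSIR. Its levels of 106, 116 and 107 against 100.4, 105 and 106 CPM overlapped (−0.09, 95% interval −0.31 to 0.14). The uptake transporter gene Slco1b2 was at −0.56 and −0.53 from PBS and at 0.03 in the direct comparison (95% interval −0.22 to 0.28). The respiratory chain gene Ndufv2 was at −0.57 and −0.62, with −0.06 between the oligonucleotides, and Mup16, a major urinary protein gene with near-identical copies, at −0.92 and −0.98, with −0.06. Tagln2 had 0.46 and 0.30, with −0.16 between the oligonucleotides (95% interval −0.33 to 0.02), Rpl41 had −0.62 and −0.42, with 0.20 (−0.04 to 0.44), and Mia2 had 0.41 and 0.14, with −0.27 (−0.42 to −0.13). The trafficking gene Rab9 had −0.31 and −0.58, with −0.27 (−0.51 to −0.03), and Ndufa4l2 had −0.55 and −0.18, with 0.37 (0.15 to 0.58). None of the direct differences in this paragraph passed the test.

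Snora68, a small nucleolar RNA, was the gene of this kind with the widest gap. It stood at 8.70, 9.57 and 10.1 CPM with the scrambled and at 26.9, 12.3 and 25.6 CPM with the TTR REVERSIR, without overlap. The log2 fold change was 1.30 ± 0.39 (95% interval 0.50 to 2.11, adjusted p = 0.438 by edgeR). In the libraries with siRNA the value was 1.14 (95% interval 0.57 to 1.71), which was not past the adjusted threshold either. The annotation places another gene over part of Snora68, Snora74a, 2410006H16Rik, Cp, Eef1a1, Thrb, Pdia4, Ddit3, Xrn1, Ndufv2, Ttr, Hif1a, Wrnip1, Gpi1, Eif2b3, Srsf1, Ccnf, Ccl2, Ctgf, Por, Sult1a1, Stab2, Acaa1b, Dnase2a, Angptl2, Rnf220, mt-Nd1 and Ndufa4l2, whose values are uncertain to that extent, since the sources do not state how strand was counted.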

How the data were processed

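Libraries were grouped by sample title, 3 per group. Per the labels' protocols and file contents, the deposited files hold raw read counts of 37991 Ensembl genes per library. Per the submitters' processing notes, STAR, DESeq2 and the build NCBIM37 were used, with no versions. The counting tool, strand and filters are not stated in the sources used here. The authors also deposited DESeq2 tables against PBS with log2 fold changes and adjusted p-values, quoted only where named. Annotation of the same build held 37205 of the identifiers, and the deposited tables named 49 more. Counts were fitted with edgeR 4.0.16 in R 4.3.3 (filterByExpr by group, TMM, quasi-likelihood, group as the only term) over all 18 libraries, with 12 residual degrees of freedom, which left 11153 genes. The threshold was an adjusted p of 0.05 (Benjamini-Hochberg). Standard errors were computed from the F statistic. Steps were tested on simulated data. Alternatives used DESeq2 1.42.0, limma 3.58.1, other scalings and filters, and libraries left out.

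The genes named were Ttr, all genes called, the 10 smallest p in each direction (mean log2 CPM of at least 1), up to 2 members of each list unless more were called, the 6 smallest p of each oligonucleotide against PBS, and the 10 most abundant protein-coding genes. Further members of the lists were named after their values were seen. A few genes chosen this way are left out of the text. The members and the 25 lists were chosen with earlier results of these data known. Of 546 distinct list symbols, 543 matched and 481 were tested.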

Additional observations from a re-analysis of the deposited data

Results flagged for a closer look

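The difference in Ttr between the TTR and the scrambled REVERSIR itself differed between cells without and with siRNA, by −2.04 on the log2 scale in edgeR's interaction test (adjusted p = 3.28e-10). It was 0.18 ± 0.09 without siRNA and 2.22 ± 0.09 with siRNA. The mean level of Ttr was 1111 CPM in PBS and 243 CPM with the siRNA alone. Together with the siRNA it was 226 CPM with the scrambled and 1054 CPM with the TTR REVERSIR.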

How the results depend on the processing

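The count of 2 genes between the TTR and the scrambled REVERSIR was 2 with RLE or upper-quartile scaling, with limma voom, with a filter of 2 CPM, without the PBS group, with mitochondrial ribosomal RNA taken out, after thinning to the smallest library and, in a run added after the data were seen, with only the third PBS library. DESeq2 gave 3. Library totals alone gave 0, no filter on low counts gave 42 (25 higher, 17 lower), and a fit of only the groups compared gave 4. Leaving out 1 library gave 0 to 5. Without the filter, the count with siRNA rose from 1 to 35 and the interaction from 1 to 21, and the cause was not tested. A replicate block left the count at 2, at 1 with siRNA and at 1 for the interaction, and the scrambled and TTR REVERSIR against PBS gave 52 and 55. Same-numbered TTR and scrambled libraries had correlations of −0.008, 0.048 and 0.013 in their deviations from the group means. These values cover only the groups compared and cannot show whether a shared number stands for a shared preparation.

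Against PBS the counts depended more on the settings. For the scrambled REVERSIR (47) they were 1580 with library totals alone, which shifted the median of all genes by 0.29, 186 with DESeq2, 7 with voom, 424 with no filter, 7 with only the groups compared, 10 after thinning and 0 with the third PBS library only. For the TTR REVERSIR (78) they were 2883 with library totals alone (median 0.31), 162, 498 with no filter, 0 with only the groups compared, 1 after thinning and 0 with the third PBS library only. Leaving out 1 library gave 0 to 749 and 0 to 978, with the highest counts without PBS replicate 3. The causes were not tested.

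Ttr between the oligonucleotides ranged from 0.12 to 0.28 and was called in no setting. Of the settings of the named genes, 1463 kept direction and call, 14 gained and 10 lost a call, and 26 turned direction, in 9 genes near 0. Car3 became 0.031 after thinning. Leaving out 1 library gave −0.23 to 0.0092 for Mup16, −0.11 to 0.027 for Ndufv2, −0.0084 to 0.11 for Slco1b2, −0.036 to 0.073 for Hpx, −0.053 to 0.0022 for Gc, −0.027 to 0.051 for Actb and −0.090 to 0.030 for Hp. Slco1b2 became −0.074 after thinning. Serpina3k became 0.0023 with RLE scaling, 0.018 with library totals, 0.0028 with upper quartiles and with voom, 0.0025 with DESeq2, 0.013 with no filter, 0.00027 with only the groups compared, 0.00083 without PBS, 0.0035 without mitochondrial ribosomal RNA, 0.0022 with the third PBS library only, and −0.027 to 0.029 without 1 library.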
